A study of Mus musculus with 2 samples.

Results

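The genes described here encode the enzymes of the methionine cycle, of transsulfuration and of the first step of creatine synthesis. They are Mat1a, Mat2a, Mat2b, Gnmt, Ahcy, Mtr, Bhmt, Cbs, Cth and Gatm, 10 genes listed by their place in the pathway. The rule holds no measured value, but the genes were chosen with earlier results of these data known. Every probe set whose only gene symbol in the platform annotation was one of these names was taken. A probe set is the group of short probes that together read 1 transcript on the array. In all, 11 probe sets for 9 of the 10 genes were found among the 18193 genes with such a probe set. Mat2a was not analysed here.

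The samples were 2 pools of RNA from whole pancreas of male mice aged 10 weeks, born to C57BL/6J females. The control pool came from offspring whose dams ate control diet throughout the window from embryonic day 12.5 to 14.5. The threonine-deficient (TD) pool came from offspring whose dams ate a diet lacking enough of the essential amino acid threonine over those days. Pups of both groups were weaned at 3 weeks, received control diet afterwards and were not treated themselves. There was 1 pool and 1 array per group, and the sources used here do not give the number of animals in a pool. No value below therefore has a replicate or a p-value, and each difference is between these 2 pools.

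In the methionine cycle, methionine adenosyltransferases join methionine and ATP to S-adenosylmethionine (SAM), the methyl donor of the cell. Methyltransferases use SAM and leave S-adenosylhomocysteine, which is split to homocysteine. Homocysteine is either remethylated to methionine or passed through cystathionine to cysteine, the transsulfuration route. Creatine synthesis starts from arginine and glycine and ends with a SAM-dependent methylation, and the exocrine pancreas is known as a site of its first step. Glycine, which threonine breakdown can supply, is also the methyl acceptor of GNMT.

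Signals of this pathway were close in the pools. Of the 9 genes read by their brightest probe set, 0 were at least 2-fold apart, against 2.16% of the 10758 genes above the floor on at least 1 array. The floor was a signal of 264.92, the 60th percentile of the array on which that percentile was higher, and any lower signal was set to it before logarithms were taken. 1 of the 9 genes, Mtr, was at least 1.5-fold apart, against 12.6% of all genes above the floor (7.2% higher and 5.36% lower), so neither count set these genes apart from the array as a whole. 5 genes had a higher and 4 a lower signal in the TD pool, beside 50.1% and 49.9% of all genes, with log2 ratios (threonine-deficient over control) from −0.34 for Cth to 0.68 for Mtr. One of the lower genes was Cbs, whose probe sets went opposite ways, and with the median over each gene's probe sets 6 were higher and 3 lower. Their median log2 ratio was 0.05, beside 0.00 for all genes above the floor, and −0.07 over the 7 genes left with the floor at the 75th percentile. The median of the absolute log2 ratios was 0.17 for the members and 0.22 for all genes.

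**Figure D1:**
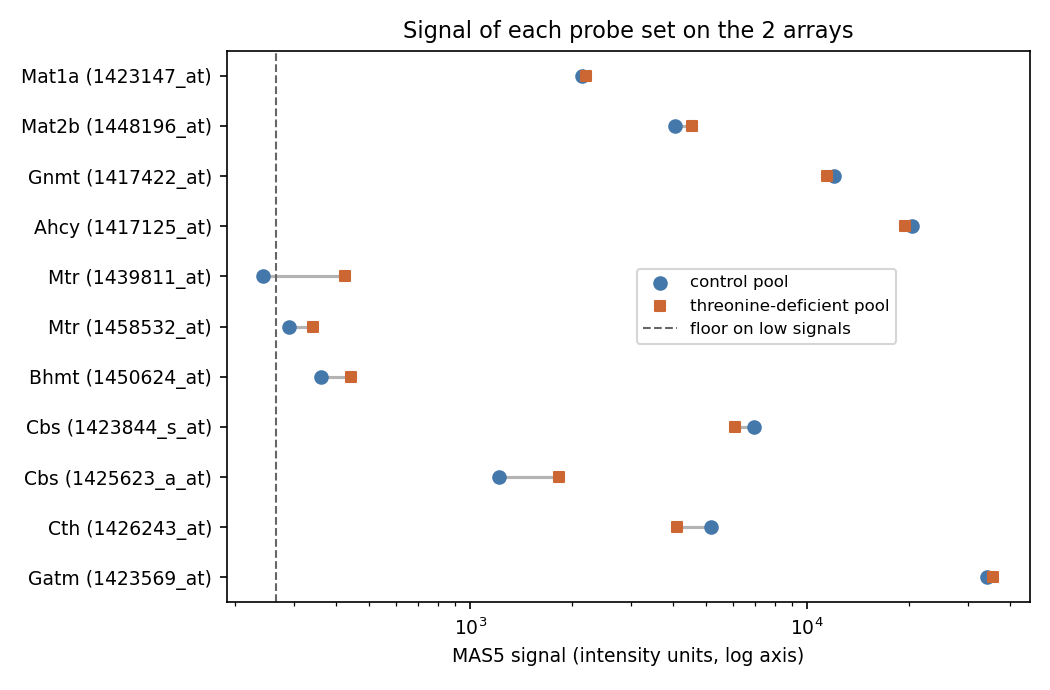
MAS5 signal in intensity units, on a log axis, of each of the 11 probe sets in the control pool (circles) and the TD pool (squares), with the floor of 264.92 as a dashed line. The markers of Gatm, Ahcy, Gnmt and Mat1a nearly coincide, and the probe sets of Mtr and Bhmt lie close to the floor; signals of different probe sets are not comparable as transcript levels.

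Without replicates, each log2 ratio was set beside a local spread, which is the median absolute deviation of log2 ratios, scaled to a standard deviation, over the probe sets nearest in signal. It describes how far probe sets of like brightness lay apart on these arrays and holds no animal-to-animal variation. The local spread was 0.11 for Gatm and 0.60 for the dimmer probe set of Mtr, so a given ratio means less for the dim genes. Control transcripts gave a second measure. For the 18 probe sets of hybridisation controls the log2 ratio ran between −0.32 and 0.06, which held 5 of the 9 genes and left out Cth, Mat2b, Bhmt and Mtr. Signals of these controls ran from 6869 to 243634, above those of Mat1a and of every gene left out. The range therefore does not describe genes as dim as these. The 24 probe sets for polyadenylated controls above the floor ranged from −0.39 to 0.53 and held all of the 9 genes except Mtr, whose value is a bound. Signals of these controls ran from 980 to 32260, above those of Bhmt and Mtr and below those of Gatm. Their range therefore does not describe genes as dim as Bhmt and Mtr or as bright as Gatm.

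SAM synthesis was read by Mat1a and Mat2b. Mat1a encodes the catalytic subunit typical of adult liver, which the pancreas also makes. Its signal was 2139 in the control and 2208 in the TD pool. The log2 ratio was 0.05 (local spread 0.23). Mat2b, the regulatory subunit that partners the MAT2A enzyme of most tissues, had 4046 and 4537, a log2 ratio of 0.17 (local spread 0.17). Both subunits were slightly higher in the TD pool, and without a further rescaling of the arrays neither exceeded its local spread.

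Gnmt and Ahcy act on either side of S-adenosylhomocysteine. GNMT, glycine N-methyltransferase, methylates glycine to sarcosine and is abundant in liver, where it uses up excess SAM, and in acinar cells. Gnmt had a signal of 11994 in the control and 11424 in the TD pool, a log2 ratio of −0.07 (local spread 0.15). AHCY, the hydrolase that removes S-adenosylhomocysteine, had 20517 and 19470, a log2 ratio of −0.08 (local spread 0.13). Relative to the control signal the difference was −4.75% for Gnmt and −5.10% for Ahcy, both inside the local spread. Sardh, the mitochondrial enzyme that turns sarcosine back into glycine, had a log2 ratio of −0.22 in its brighter probe set, 3055 to 2624, and −0.52 in its other one. Its local spreads were 0.23 and 0.37, so only the dimmer probe set lay beyond its own.

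Homocysteine is remethylated by MTR, the vitamin B12-dependent methionine synthase, or by BHMT, which takes the methyl group from betaine. Their probe sets lay closest to the floor. Mtr was read by a pair of probe sets. In 1439811_at the signal was 243 in the control pool, under the floor, and 425 in the TD pool, at least 1.60-fold higher. In 1458532_at it was 290 and 340, a log2 ratio of 0.23. The local spread was 0.58 and 0.60, so the first lay just beyond it and the second well inside, although both were higher in the TD pool. A higher floor, at the 75th percentile, placed both Mtr probe sets under it on both arrays. Bhmt, best known from liver and kidney, had 360 and 443, a log2 ratio of 0.30 (local spread 0.54). Its signals were 1.36 and 1.67 times the floor, close to where this array reading stops.

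Among the members' probe sets, the lowest log2 ratio was that of Cth, in transsulfuration. CTH, cystathionine gamma-lyase, cleaves cystathionine to cysteine. Cth had a signal of 5181 in the control and 4099 in the TD pool, 1.26-fold lower. Its log2 ratio of −0.34 was 1.87 times its local spread of 0.18. CBS, cystathionine beta-synthase, condenses homocysteine with serine. In the brighter Cbs probe set, 1423844_s_at, the signal was 6960 and 6120, a log2 ratio of −0.19 (local spread 0.16).

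The dimmer Cbs probe set went the other way. In 1425623_a_at the signal was 1215 in the control and 1836 in the TD pool, 1.51-fold higher, at a log2 ratio of 0.60 (local spread 0.29). The probe sets of this gene thus differed by 0.78 on the log2 scale, and the direction for Cbs depended on which was read: the median of the pair was 0.21. Over 3246 genes with at least 2 probe sets above the floor on both arrays, the brightest and the next differed by a median of 0.29, and 10.1% differed by as much as Cbs or more. The suffixes of both names mark probe sets that may be shared between transcripts, of different genes (_s_at) or of 1 gene (_a_at). Which transcripts each read was not analysed here.

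**Figure D2:**
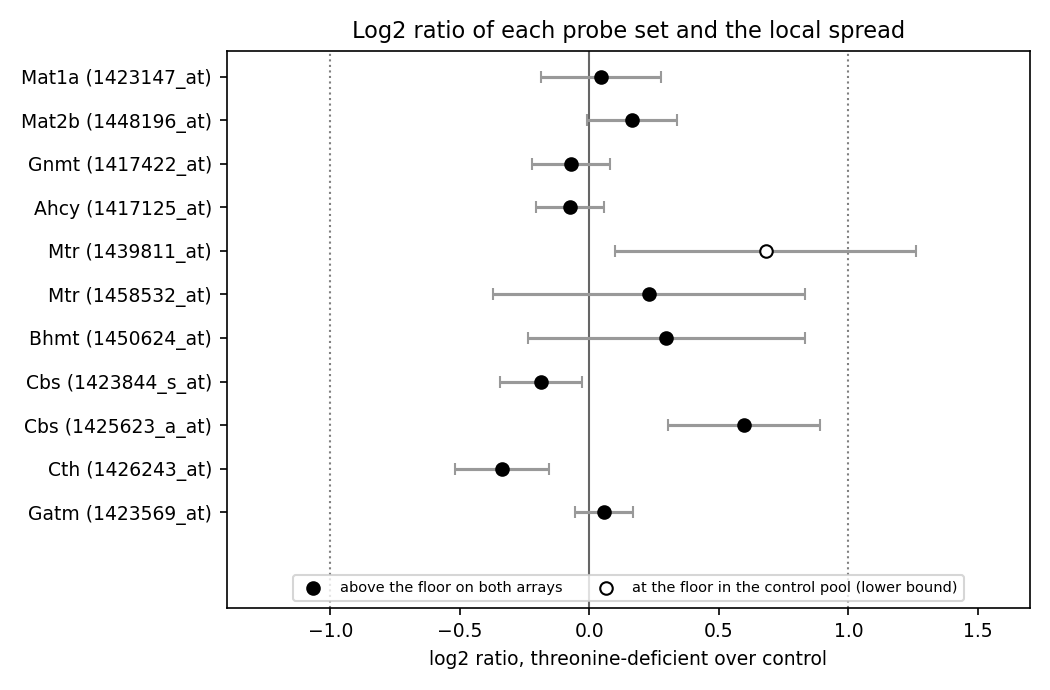
Log2 ratio of the threonine-deficient over the control signal for each of the 11 probe sets (points) with the local spread of probe sets of like signal on either side (bars), which is not a replicate error; the open point was at the floor in the control pool and is a lower bound, and dotted lines mark 2-fold. Cth at −0.34 lies below 0 and the dimmer Cbs probe set at 0.60 lies above 0 by more than their bars, the brighter Cbs probe set and the bound for Mtr clear 0 narrowly, and Mat1a, Gnmt, Ahcy and Gatm lie within 0.08 of it.

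Creatine synthesis showed nearly equal signals at both of its steps. GATM, arginine:glycine amidinotransferase, makes guanidinoacetate, and Gatm had 34268 in the control and 35649 in the TD pool. Its log2 ratio of 0.06 lay inside a local spread of 0.11. Gamt, the methyltransferase that completes creatine with SAM, had 12130 and 12021, a log2 ratio of −0.01 (local spread 0.15). Slc6a8, the transporter that takes up creatine, had 348 and 691, a log2 ratio of 0.99 (local spread 0.46). Its other probe set gave −0.28, from 342 to 281, so the probe sets of Slc6a8 did not share a direction. Centring the arrays on their median log2 ratio took the brighter probe set past 2-fold.

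In order of the log2 ratio of their brightest probe sets the members ran Cth, Cbs, Ahcy, Gnmt, Mat1a, Gatm, Mat2b, Bhmt and Mtr. The place of Cbs rests on 1 of its probe sets, and at the median of the pair, 0.21, it would stand between Mat2b and Bhmt. No neighbours in this order differed by more than their combined local spread. The ends, Cth and Mtr, differed by 1.02 against a combined spread of 0.61, although the Mtr value is a bound. They were picked as the lowest and highest of the members, so the spread of a single pair cannot judge their distance. After removal of the trend of log2 ratio on signal, Cth had −0.27 and Gnmt −0.0036, and no member changed sign. The brighter Cbs probe set then had −0.11, inside its local spread of 0.16.

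**Figure D3:**
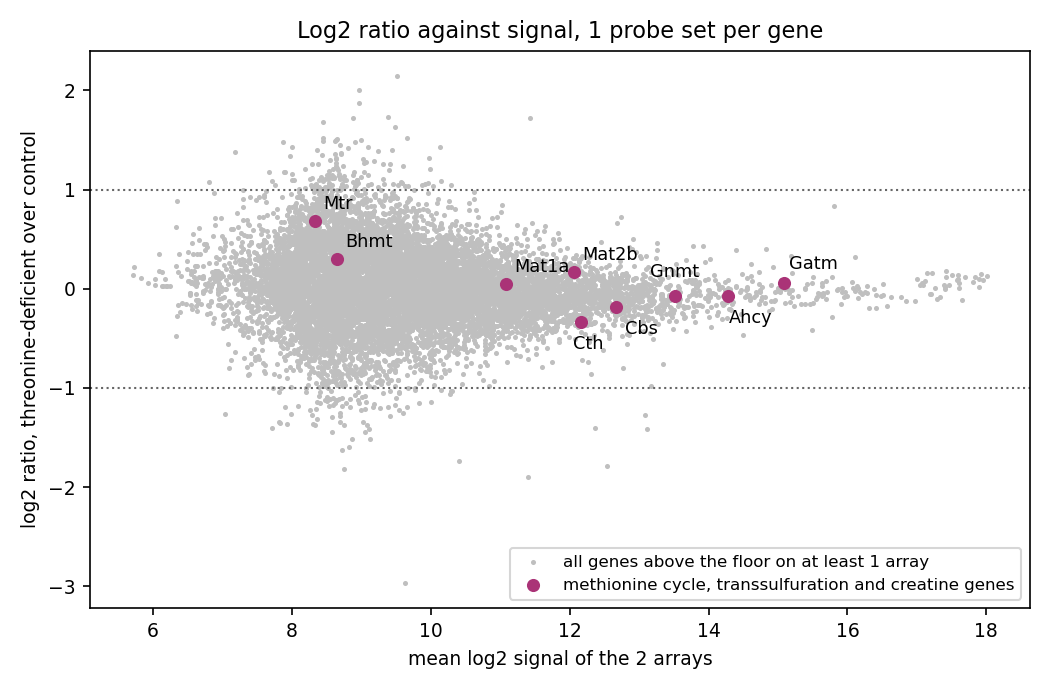
Log2 ratio of the threonine-deficient over the control signal against the mean log2 signal of the 2 arrays, with 1 probe set per gene for the 10758 genes above the floor on at least 1 array (grey) and the 9 members (purple); dotted lines mark 2-fold. The members lie within the cloud of genes of like signal, which widens towards low signals, where Mtr and Bhmt lie.

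The other genes of the pathway were read in 7 lists with 64 genes, of which 59 had a probe set and 52 were above the floor on at least 1 array. Of the 52, 0 were at least 2-fold apart. By 1.5-fold or more 6 were higher and 1 was lower, beside 7.2% and 5.36% of all genes above the floor. Together these were 13.5% of the 52 against 12.6% of all genes above the floor. The lists together had a median log2 ratio of −0.03, beside 0.00 for all genes, with 25 higher and 27 lower. Genes that passed the floor only on the TD array had to be higher there, and Pipox and Mthfd1l, among the 6, did so.

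Partners of the methionine cycle had a median log2 ratio of −0.16, with 2 of 6 higher. Mmadhc, which routes vitamin B12 inside the cell, had −0.32 (local spread 0.24), from 2295 to 1837. Ahcyl1, an AHCY-like protein that regulates calcium release, had −0.31 (local spread 0.18) in its brightest probe set and −0.03 and 0.12 in the others. Mtrr, which reactivates methionine synthase, had 285 in the control pool and 259, under the floor, in the TD pool, so both readings lay at the edge of the floor. Read by their brightest probe sets, 0 of the 6 genes were 1.5-fold apart. A dimmer probe set of Ahcyl2, another AHCY-like protein, went from 573 to 305, a log2 ratio of −0.91 (local spread 0.45), while its brightest gave 0.11; it is named after its values were seen.

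In the betaine and sarcosine route, 1 of 4 genes above the floor was higher and the median was −0.14. The higher one was Pipox, a peroxisomal oxidase of sarcosine and pipecolate, with 149 in the control pool, under the floor, and 426 in the TD pool, at least 1.61-fold higher. It passed 2-fold with no floor or with the floor at the 50th percentile. Bhmt2 lay under the floor on both arrays. Enzymes that methylate small molecules with SAM had a median of 0.46, with 5 of 5 genes above the floor higher, As3mt among them only through the TD array. Pnmt, which makes adrenaline, had 1150 and 2146 in its brightest probe set, a log2 ratio of 0.90. Its other probe sets gave −0.79 and 0.31, each from the floor on 1 array, so the gene had no shared direction. Pemt, which makes phosphatidylcholine from phosphatidylethanolamine, had 290 and 431, a log2 ratio of 0.57 inside a local spread of 0.59.

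Steps after cysteine had a median of −0.18 over 11 genes, 5 of them higher. Ethe1, a mitochondrial dioxygenase of sulfide breakdown, had 710 and 462, a log2 ratio of −0.62 (local spread 0.42). Csad, which decarboxylates cysteine sulfinate on the way to taurine, had 0.42 inside a local spread of 0.48. The list for creatine methylation, transport and kinases had a median of 0.35, with 4 of 5 genes higher. Besides Slc6a8 its largest value was that of the muscle creatine kinase Ckm, with 307 and 508, a log2 ratio of 0.73 (local spread 0.545). Its other probe set was at the floor in the control pool and gave at least 0.39.

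The list for polyamines, whose synthesis consumes decarboxylated SAM, and methionine salvage had a median of −0.07. In it 8 of 10 genes were lower, beside 49.9% of all genes above the floor, and the median absolute log2 ratio was 0.08. The lower genes included Sat1, Oaz1 and Azin1, which are not enzymes of polyamine synthesis. Amd1 and Sms, also listed, were not analysed here. Enoph1, of the salvage route, had a log2 ratio of −0.50 (local spread 0.42) in its brightest probe set, from 741 to 524. Another Enoph1 probe set, at the floor in the control pool, gave at least 0.16. Odc1, the first enzyme of polyamine synthesis, had −0.26 (local spread 0.14), from 19617 to 16367, with −0.08 and 0.07 in its other probe sets. Folate one-carbon enzymes, which supply the methyl group used by MTR, had a median of 0.10 with 6 of 11 higher, of which 3, Mthfd1l, Shmt1 and Ftcd, passed the floor only on the TD array. Fpgs, which adds glutamates to folate and so keeps it in the cell, had 800 and 1497, a log2 ratio of 0.90 (local spread 0.30). Mthfd1l, a mitochondrial enzyme of formate release, was at least 1.86-fold higher, from 255, under the floor, to 493.

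**Figure D4:**
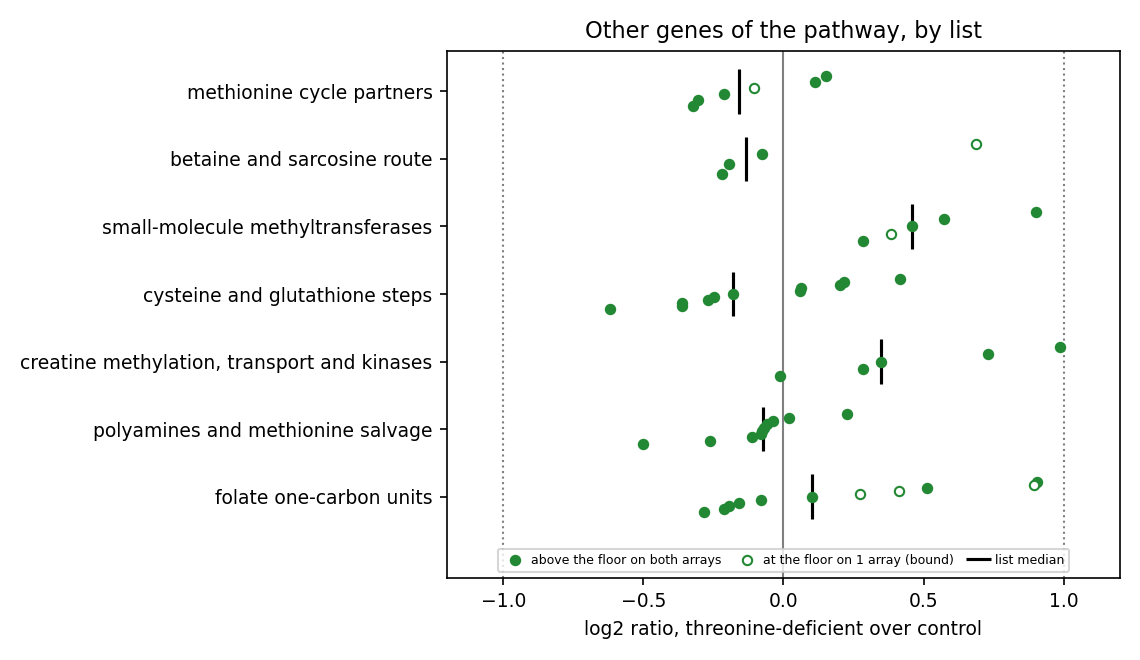
Log2 ratio of the threonine-deficient over the control signal for the 52 other pathway genes above the floor on at least 1 array, in 7 lists, with filled points above the floor on both arrays, open points at the floor on 1 array and black bars at list medians; dotted lines mark 2-fold. No gene lies beyond 2-fold, Slc6a8 at 0.99 comes closest, and the list medians range from −0.18 to 0.46.

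The make-up of the pools was read from marker lists. Sums took all measured genes of a list, including those under the floor, at their signals before the floor was applied. In whole tissue, fewer cells of a type and less RNA per cell cannot be told apart. Of the acinar markers, 8 of 11 were measured and all 8 were above the floor, with summed signals of 990366 and 1068076, a log2 ratio of 0.11. Summed islet markers, all 7 above the floor, had a log2 ratio of −0.28, with 175763 and 144276. Summed adipocyte markers, with 6 of 7 measured and all 6 above the floor, had −0.88, from 42481 to 23073, and −0.67 without Car3. B and plasma cell markers, 4 of 5 above the floor, had −1.18, from 10392 to 4584, and −0.70 without the immunoglobulin gene Ighm. Macrophage markers, 3 of 4 above the floor, had 0.46, from 2863 to 3942, and 0.33 without Csf1r. Endothelial markers, 4 of 5 above the floor, had 0.65, from 1311 to 2063, and 0.46 without Kdr. Kdr had 61 in the control pool, under the floor. Duct markers, with 5 of 7 measured and 3 above the floor, had 0.92, from 1828 to 3447. Without Car2, a carbonic anhydrase with 349 and 1541, the duct sum had 0.37, from 1479 to 1907. Stellate and fibroblast markers, 3 of 5 above the floor, had 0.00, from 20805 to 20826, and 0.07 without Dcn. The acinar sum had 0.10 without Cel and the islet sum −0.23 without Iapp. The part of these differences in the ratios of Cth, Cbs and the other members was not tested. Among liver markers, 6 of 9, Apoa1, Fabp1, Serpina1b, Cps1, Tat and Cyp3a11, were under the floor on both arrays, and Alb, albumin, had 279 and 320. The remaining liver markers had higher signals in the TD pool, Apoa2 with 344 and 558 and Apob with 146 and 481. Apob passed the floor only on the TD array, so as a marker above the floor it had to be higher there. The summed liver signal was 1088 and 1883, or 942 and 1402 without Apob. Gnmt and Mat1a, also made in liver, had log2 ratios near 0, and whether liver RNA added to their signals was not tested. Kidney tubule markers had 4 of 7 above the floor, and Slc34a1, Slc22a6 and Umod were under it on both arrays. Their summed signals were 1835 and 2136, a log2 ratio of 0.22, or 0.09 without Slc12a1. Slc12a1 and Lrp2 passed the floor only on the TD array, while Kap was lower there, with 666 and 497.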

How the data were processed

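RNA had been extracted with TRIzol, pooled per group, labelled with the GeneChip 3' IVT Express Kit and hybridised to Affymetrix mouse genome arrays, per the labels' protocols. Deposited were linear signal intensities per probe set, produced by the authors with MAS5 per the submitters' processing notes. The sources used here do not give its version. Each array had been scaled as a whole: the mean after trimming 2% at each end was 500.0 on both, and median signals were 164.7 (control) and 183.8 (threonine-deficient, TD). Ratios are thus relative to the rest of the array, and the 2 arrays limit the precision of every value.

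Of 45101 probe sets, 64 were controls, 34945 had 1 gene symbol, 932 several and 9160 none. Symbols were updated through gene identifiers in a RefSeq table of GRCm38.p6, which matched 34741. Probe sets with several symbols named no gene. No genome build is named for the values, so no positions are given.

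Log2 ratios were taken after the floor, except those of the marker sums, and each gene was read by its probe set of highest mean log2 signal. The members' probe sets are all described. Of each pathway list the 2 genes of largest absolute log2 ratio among those above the floor are named, with Gamt, Slc6a8 and Mtrr as direct partners and Bhmt2 and Sardh beside their members. The members and lists were chosen with earlier results of these data known. The alternatives were 2 rescalings (median centring, loess with a span of 0.3), no floor, other floors, a pseudocount, the median over probe sets and removal of sharing suffixes. Calculations used Python 3.11.15, numpy 2.4.6, pandas 2.3.3 and statsmodels 0.14.6, and were tested on simulated data.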

Additional observations from a re-analysis of the deposited data

How the results depend on the processing

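Under the 8 alternatives 0 members were at least 2-fold apart, while the share of all genes that far apart was 9.73% with no floor, 4.3% with the floor at the 50th percentile, 1.28% with a pseudocount, 0.967% with the median over probe sets and 0.625% with the floor at the 75th percentile. The count of members at least 1.5-fold apart was 0 in place of 1 with the floor at the 75th percentile, with a pseudocount and with the median over probe sets; Mtr, the gene concerned, was under the 75th percentile on both arrays, at a log2 ratio of 0.00. The count of pathway genes at least 2-fold apart was 1 in place of 0 with median centring (Slc6a8) and with no floor or the floor at the 50th percentile (Pipox). With the median over probe sets 3 members were lower and 6 higher, in place of 4 and 5, since Cbs changed sign. The members' median log2 ratio ran from −0.07, with the floor at the 75th percentile and 7 genes, to 0.09 after loess. Cth stayed between −0.34 and −0.27. Mat2b had 0.18 with median centring and 0.23 after loess, both beyond its local spread of 0.17. Cbs had 0.21 with the median over probe sets and was left out without sharing suffixes. The sums of markers without their most different gene were added after seeing the data. No paired analysis was possible because each group had 1 array. Dim signals limit what can be said of Mtr, Bhmt, Mtrr and Pipox.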

Other observations

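Probe sets of a gene gave opposite signs for 47.9% of the 3246 genes with at least 2 probe sets above the floor on both arrays. In the pathway this was seen beyond Cbs and Slc6a8, in genes chosen after their values were seen. Slc19a1, the reduced folate carrier, had a log2 ratio of 0.51 in its brightest probe set, from 628 to 896, and −1.11 in another, from 578 to 268. Mthfd1, the cytosolic enzyme that interconverts folate one-carbon units, had −0.19, 0.91 and −0.47 in its 3 probe sets. Shmt2, the mitochondrial enzyme that makes glycine from serine, had −0.16 in its brightest and −0.61 in its next probe set, the latter from 1307 to 856, so these shared a direction.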
